A study of Homo sapiens with 9 samples.

Results

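The 10 genes described here are MCM2, MCM3, MCM4, MCM5, MCM6, MCM7, MCM8, MCM9, MCM10 and MCMBP, taken by symbol from a table of 58735 genes. Each symbol matched 1 gene, and all 10 genes were tested in every comparison. KHM-5M, a human thyroid cancer cell line, was exposed for 24 h to the vehicle DMSO, to 0.3 μM of YK-4-279 or to 1 μM of YK-4-279, an inhibitor of the ETS family of transcription factors, and poly(A) RNA was sequenced. Every group had 3 samples of this single line. The labels name no genetic change in any group, while the paper describes KHM-5M as carrying BRAF V600E and TERT promoter mutations. The labels do not say whether the samples of a group came from separate cultures, while the methods name 2 biological replicates. The p-values weigh differences between groups against the spread between these samples, which may be technical.

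MCM2 to MCM7 encode the subunits of the ring-shaped helicase that is loaded onto DNA at replication origins in G1 and unwinds the double helix in S phase. The ring becomes active when it is joined by CDC45 and the GINS complex. MCM10 is not a ring subunit but a factor that helps the assembled helicase to start and tethers DNA polymerase alpha and primase. MCM8 and MCM9 form a separate helicase pair that acts in homologous recombination and mismatch repair, and MCMBP binds free MCM subunits and protects them before they reach chromatin. MCM2 to MCM7 are classic targets of the E2F transcription factors and are used as markers of cells able to proliferate.

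Promoter sequences are shown first because the drug is an inhibitor of ETS factors and because E2F is the textbook regulator of the helicase ring. The 200 bases before each RefSeq start (GRCh38.p14) were searched on both strands for the E2F words TTTCCCGC, TTTGGCGC, TTTCGCGC and TTTGCCGC, the ETS word CCGGAAG and the word CCAAT. The table of RefSeq promoters held 8 of the 10 genes with 11 windows (MCM7 had 3 and MCMBP had 2), and MCM4 and MCM5 had no entry. An E2F word was found in 4 genes, MCM3, MCM6, MCM7 and MCMBP (4 of 11 windows), while 2.27% of 35116 windows in the whole table held one. An ETS word was found in 1 gene, MCM8 (1 of 11 windows), while 7.71% of windows held one. CCAAT occurred in 6 genes (8 windows) and in 28.0% of all windows. Such a match describes letters only and does not show that a factor binds.

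The MCM6 window is printed whole because it overlapped no annotated exon and held 2 copies of a palindrome-like run in which E2F words on the 2 strands overlap, starting 152 and 90 bases before the start. It lies on the minus strand at chr2:135876444-135876643. Capitals mark the E2F words, 5′ to 3′ on the gene's strand.
MCM6 promoter: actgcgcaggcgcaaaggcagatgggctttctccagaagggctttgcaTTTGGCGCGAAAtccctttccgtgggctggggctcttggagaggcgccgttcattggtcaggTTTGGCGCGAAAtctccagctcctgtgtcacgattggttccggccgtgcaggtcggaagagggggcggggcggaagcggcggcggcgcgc

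For the other genes with an E2F or ETS word, the 30 bases around the word are given, with the word in capitals. The MCM3 site (chr6:52284898-52284927, minus strand) began 174 bases before the start. The MCM7 sites (chr7:100101566-100101595 and chr7:100101398-100101427, minus strand) began 187 and 9 bases before the most upstream RefSeq start. GENCODE lists all 200 bases of that window as exon, of MCM7, of the opposite-strand gene AP4M1 or of both. The MCMBP site (chr10:119872844-119872873, minus strand) began 9 bases before 1 of its 2 starts. The MCM8 site (chr20:5950561-5950590, plus strand) held the ETS word on both strands, 81 and 78 bases before the start. In that window 107 bases are exon of the opposite-strand gene TRMT6, which starts 94 bases from MCM8. The ETS word thus lies close to the starts of both genes.
MCM3 E2F site: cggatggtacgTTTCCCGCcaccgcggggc
MCM7 upstream E2F site: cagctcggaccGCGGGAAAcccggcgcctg
MCM7 E2F site at the start: ccggtcacgtggggggcgacgTTTCGCGCc
MCMBP E2F site at the start: cagcgcggtcggcggcggctaTTTCCCGCc
MCM8 ETS site: ctcaagaccgCTTCCGGAAGcctctcggct

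Counts summed to 16903251 to 18238884 per sample. A gene with no count could thus hold as many as 3 counts, which is 0.164 to 0.177 CPM (counting error alone). The samples within a group differed by more than sampling noise in all 9 pairs (chi-square per degree of freedom 3.2 to 10.7). Of the markers checked, PAX8 (21.6 to 27.7 FPKM) and HHEX (5.12 to 7.49 FPKM), transcription factors of thyroid cells, and the keratins KRT8 (183 to 204 FPKM) and KRT18 (125 to 141 FPKM) were expressed. The epithelial gene EPCAM was low (2.06 to 2.86 FPKM), and the epithelial cadherin CDH1 had 0 to 5 counts. FOXE1, another thyroid transcription factor, was at 0.11 to 0.567 FPKM. TG, TSHR, SLC5A5 and NKX2-1, which define differentiated thyroid follicular cells, were at 0 to 0.174 FPKM. The immune markers PTPRC, CD3E and CD68 had 0 to 2 counts. COL1A1 was at 32.5 to 56.4 FPKM, but its partner chain COL1A2 and the fibroblast gene DCN were at or below 0.0502 FPKM. In a bulk sample, fewer cells in S phase and less RNA per cell cannot be told apart.

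Per the deposited annotation (GRCh38), the ring genes lie at chr3:127598223-127622436 (MCM2), chr6:52264009-52284881 (MCM3), chr8:47960185-47978160 (MCM4), chr22:35400063-35425430 (MCM5), chr2:135839626-135876426 (MCM6) and chr7:100092728-100101940 (MCM7). The others lie at chr20:5950652-5998977 (MCM8), chr6:118813442-118935162 (MCM9), chr10:13161554-13211104 (MCM10) and chr10:119829404-119892556 (MCMBP). Levels between genes were compared in FPKM, the authors' count scaled to gene length and library size. In DMSO, MCM7 was the most abundant of the 10 genes at 91.7 ± 3.94 FPKM (SD, n = 3), above 98.2% of 19951 protein-coding genes. MCM3 (54.7 ± 1.14) and MCM4 (54.7 ± 1.34) followed, and these 2 were the only neighbours in the order whose DMSO values overlapped. MCM5 was at 33.0 ± 1.21, MCM2 at 28.1 ± 0.934 and MCM6 at 24.1 ± 0.228 FPKM. All 6 ring genes were above the other members in FPKM. This order depends on the gene lengths of the deposited annotation, such as 7338 bases for MCM5 and 3650 for MCM3. By DMSO counts, which are not scaled to length, MCM5 (4009 to 4366) was above MCM3 (3398 to 3550). By the same counts MCMBP (1928 to 1949) was above MCM6 (1692 to 1780). MCMBP was at 18.4 ± 0.637 FPKM and MCM8 at 14.1 ± 0.774 FPKM. MCM10 was at 6.75 ± 0.608 FPKM, and MCM9 was the lowest at 0.589 ± 0.0902 FPKM, where 43.0% of protein-coding genes were lower. MCM9 rested on 105 to 147 counts per DMSO sample, against 1692 to 1780 for MCM6, so its changes were measured with less precision.

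**Figure D1:**
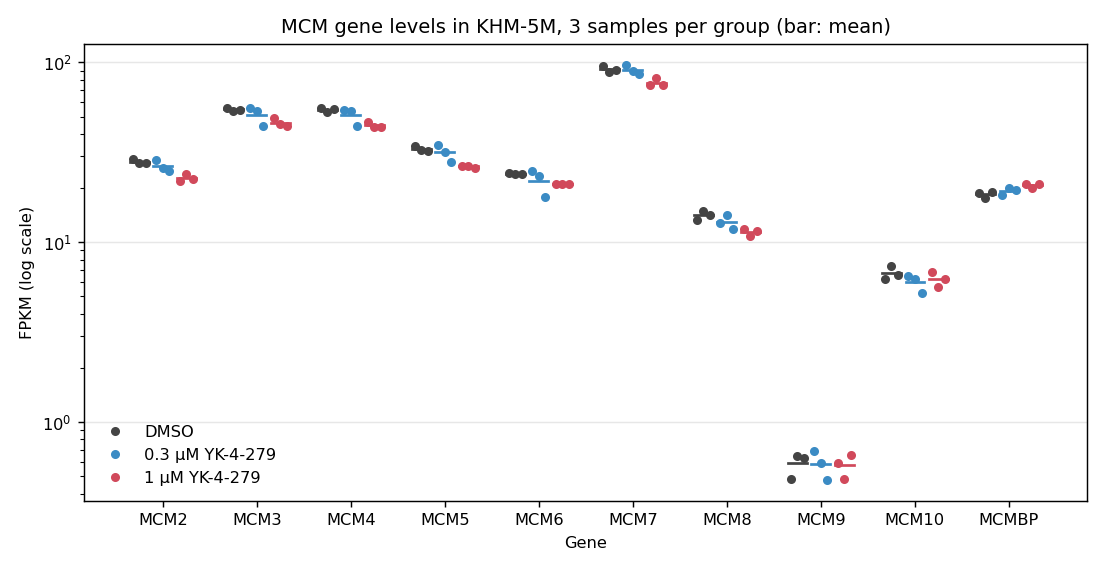
FPKM (log scale) of the 10 genes in each of the 9 samples, with points for samples and bars for the mean of 3 samples. MCM7 lies highest and MCM9 lowest in every group, and the 1 μM points of MCM2 to MCM5, MCM7 and MCM8 lie below all DMSO points of the same gene, as do those of MCM6.

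The first comparison asked how the MCM genes differed after 1 μM of YK-4-279. All 6 genes of the helicase ring were lower than in DMSO, and the falls ranged from the smallest in MCM6, which fell by 13.2%, to MCM5, which fell by 20.9%. MCM8 fell by 20.2%. MCM9 and MCM10 did not pass the test, and MCMBP tended upward without passing it. In all, 7 of the 10 genes were called lower at an adjusted p under 0.05 and 0 higher, where 9.95% of the 15617 genes tested were called lower and 7.67% higher. In the same 7 genes every 1 μM sample was below every DMSO sample, which held for 17.7% of all genes. None of the 7 reached a 1.5-fold change, whereas 4.12% of all genes were called lower with at least that fold.

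MCM5, the ring subunit with the largest fall, had 34.4, 32.7 and 32.0 FPKM in DMSO, 34.8, 31.8 and 28.1 at 0.3 μM and 26.5, 26.7 and 26.0 at 1 μM. The 1 μM samples were tightly grouped below the rest. Its log2 fold change was -0.34 (SE 0.05, 95% CI -0.45 to -0.22, adjusted p = 0.000922).

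MCM2, which binds histones as well as forming part of the ring, had 29.2, 27.6 and 27.5 FPKM in DMSO, 28.6, 26.0 and 24.9 at 0.3 μM and 22.0, 24.0 and 22.4 at 1 μM. The 3 groups were ordered by dose at their means, and the 1 μM values stood clear of both other groups. The log2 fold change at 1 μM was -0.32 (SE 0.06, 95% CI -0.45 to -0.19, adjusted p = 0.00268).

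MCM4, a core subunit of the unwinding motor together with MCM6 and MCM7, had 56.0, 53.3 and 54.7 FPKM in DMSO, 54.6, 53.7 and 44.0 at 0.3 μM and 46.8, 43.9 and 43.7 at 1 μM. A single 0.3 μM sample lay among the 1 μM values. The log2 fold change at 1 μM was -0.30 (SE 0.05, adjusted p = 0.00169). MCM7 had 95.9, 88.1 and 91.0 FPKM in DMSO, 97.0, 89.0 and 86.5 at 0.3 μM and 74.6, 81.6 and 74.4 at 1 μM. Here all 0.3 μM samples were above all 1 μM samples, and the log2 fold change at 1 μM was -0.27 (SE 0.06, adjusted p = 0.00621).

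MCM3 had 55.9, 53.6 and 54.6 FPKM in DMSO, 55.7, 53.4 and 44.3 at 0.3 μM and 49.2, 45.2 and 44.3 at 1 μM. Its log2 fold change at 1 μM was -0.26 (SE 0.06, adjusted p = 0.0073), and without replicate 3 at 1 μM it was -0.23 (adjusted p = 0.0552). MCM6 had 24.3, 23.8 and 24.1 FPKM in DMSO, 24.9, 23.3 and 17.9 at 0.3 μM and 21.1, 21.1 and 21.2 at 1 μM. Both treated means were lower than DMSO, but the lowest value was a 0.3 μM sample. The fall of MCM6 was the smallest of the ring (log2 fold change -0.20, SE 0.06, 95% CI -0.32 to -0.08, adjusted p = 0.0218). It lost its call without DMSO replicate 3 (adjusted p = 0.0773) and without replicate 1 (0.0795), 2 (0.0726) or 3 (0.0881) at 1 μM. It also lost the call when all 9 samples were fitted together (adjusted p = 0.139) and with a minimum count of 1 (adjusted p = 0.0549).

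The summed FPKM of MCM2 to MCM7 was 296, 279 and 284 in DMSO, 296, 277 and 246 at 0.3 μM and 240, 243 and 232 at 1 μM. The subunits kept the same order in that sum by their group means. MCM7 took 32.0% ± 0.44 (SD, n = 3) in DMSO and 32.2% ± 1.3 at 1 μM, and MCM2 took 9.82% ± 0.12 and 9.57% ± 0.37. MCM6 took 8.41% ± 0.17 in DMSO, 8.04% ± 0.65 at 0.3 μM and 8.88% ± 0.25 at 1 μM. These shares depend on the annotated gene lengths, and their SD covers only the spread between samples. They do not measure the make-up of the protein ring.

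**Figure D2:**
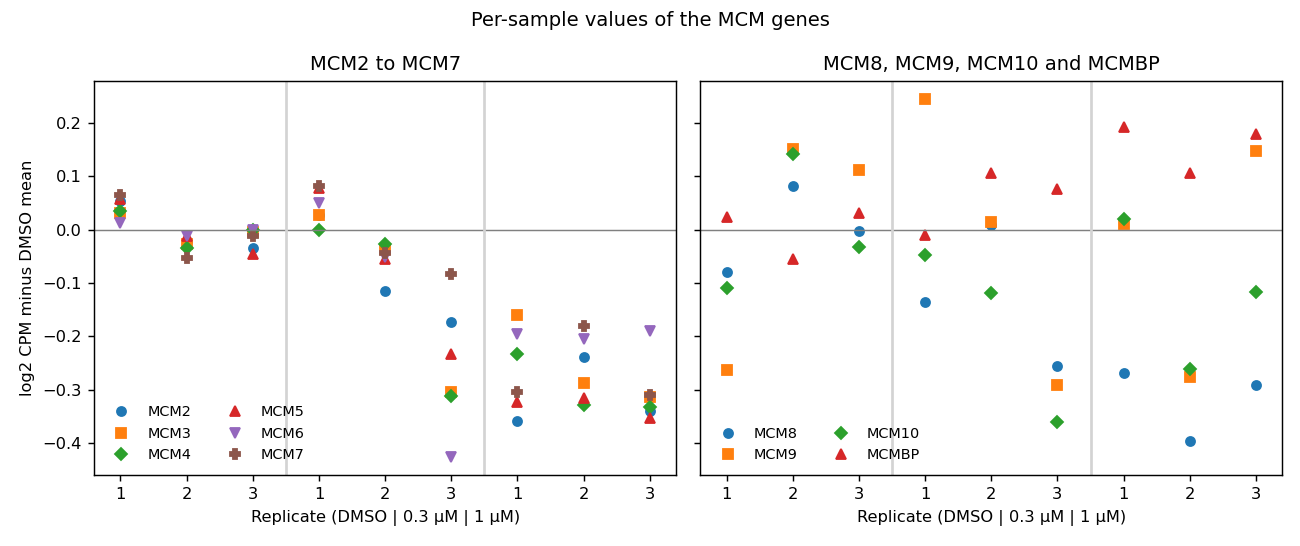
Log2 CPM minus the DMSO mean of each gene, for the 3 samples of each group, with MCM2 to MCM7 on the left and the other 4 genes on the right. The medians of MCM2 to MCM7 at 1 μM are -0.27, -0.26 and -0.32, and replicate 3 of 0.3 μM stands at -0.27, apart from the other samples of its group.

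The genes outside the ring did not move as 1 group. MCM8 had 13.3, 14.9 and 14.1 FPKM in DMSO, 12.8, 14.2 and 11.8 at 0.3 μM and 11.8, 10.8 and 11.6 at 1 μM. It fell at 1 μM, with an estimate inside the range of the ring genes (log2 fold change -0.33, SE 0.06, 95% CI -0.46 to -0.19, adjusted p = 0.00309). Its partner MCM9 had 0.485, 0.649 and 0.633 FPKM in DMSO, 0.694, 0.591 and 0.476 at 0.3 μM and 0.592, 0.485 and 0.653 at 1 μM, so that the groups overlapped throughout. The log2 fold change of MCM9 was -0.05 (SE 0.16, adjusted p = 0.871), and its 95% CI of -0.39 to 0.29 contained the estimates of all 6 ring genes.

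MCM10 had 6.24, 7.42 and 6.59 FPKM in DMSO, 6.52, 6.21 and 5.24 at 0.3 μM and 6.86, 5.67 and 6.25 at 1 μM. The groups overlapped, and the log2 fold change at 1 μM was -0.13 (SE 0.09, adjusted p = 0.367). Its 95% CI of -0.32 to 0.07 contained the estimates of MCM3, MCM4, MCM6 and MCM7. No difference between MCM9 or MCM10 and a ring gene was tested. MCMBP had 18.8, 17.7 and 18.9 FPKM in DMSO, 18.3, 19.9 and 19.4 at 0.3 μM and 21.2, 20.02 and 21.0 at 1 μM. All 1 μM samples of MCMBP were above all DMSO samples, as were those of 18.9% of all genes, while its log2 fold change of 0.15 (SE 0.06, 95% CI 0.03 to 0.28) had an adjusted p of 0.0821. The medians of the log2 fold changes were -0.29 for MCM2 to MCM7, -0.13 for MCM8, MCM9 and MCM10, and -0.0083 for all genes tested. The difference between the first 2 medians was not tested.

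**Figure D3:**
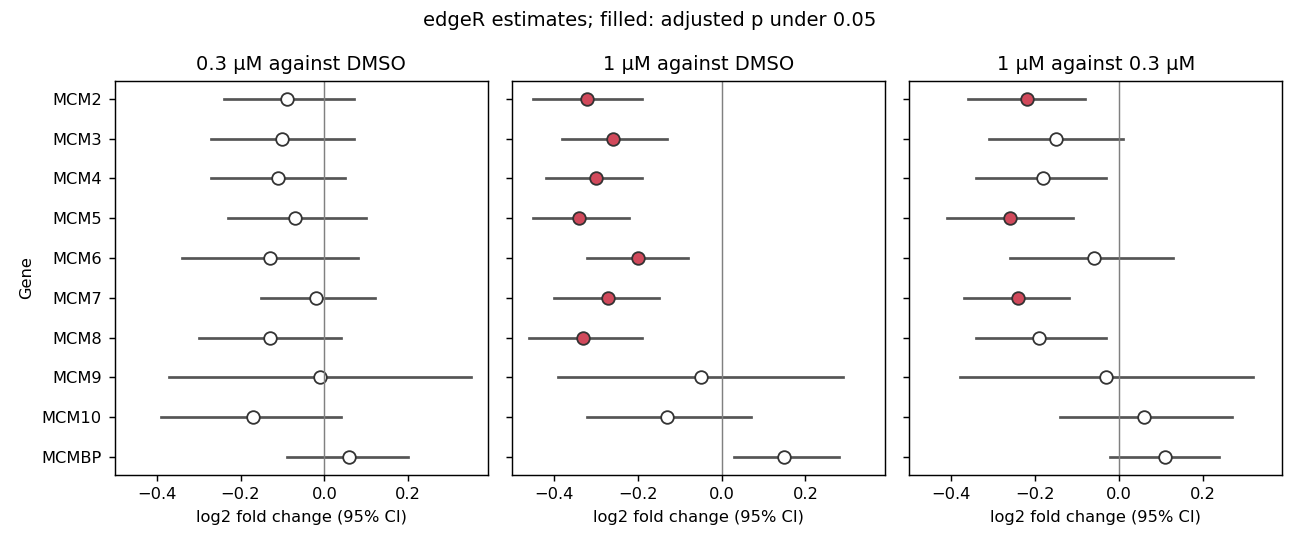
edgeR log2 fold changes of the 10 genes with 95% CI (horizontal axis) in the 3 comparisons, with filled points for an adjusted p under 0.05. The 7 filled points at 1 μM against DMSO lie between -0.34 and -0.20, there are 0 at 0.3 μM, and 3 at 1 μM against 0.3 μM.

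At 0.3 μM, 0 of the 10 genes were called, as were 0.0% of the 15762 genes tested. By the unadjusted p, 0 of the 10 genes were under 0.05, against 3.77% of all genes, and DESeq2 also called 0. Log2 fold changes ranged from -0.17 (MCM10, SE 0.10, 95% CI -0.39 to 0.04) to 0.06 (MCMBP), and the 95% CI of MCM5 was -0.23 to 0.10. In no member did all 0.3 μM samples lie below all DMSO samples, which 4.56% of all genes did. This comparison and the one at 1 μM share the DMSO samples.

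The samples at 0.3 μM were spread out in the ring genes. The median of MCM2 to MCM7 on the log2 scale, relative to the DMSO mean, was 0.04 and -0.05 in replicates 1 and 2 and -0.27 in replicate 3. Replicate 3 was the lowest of its group for 6 of 6 ring genes, for 15 of 20 other S phase genes and for 5 of 20 G2/M genes, where 36.2% of 16124 genes had their lowest value in it. Its MCM6 value (17.9 FPKM) was below all 1 μM samples. Its total count (17551482) lay within the range of the others. Without this sample the log2 fold change at 0.3 μM was 0.01 for MCM5 and 0.02 for MCM7, and 0 members were called.

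Against 0.3 μM, 1 μM of YK-4-279 gave lower MCM2 (log2 fold change -0.22, SE 0.07, adjusted p = 0.042), MCM5 (-0.26, SE 0.07, adjusted p = 0.0223) and MCM7 (-0.24, SE 0.06, adjusted p = 0.0151). These were 3 of the 10 genes, where 6.75% of 15583 genes were called lower. In CPM, MCM8 joined them among the 4 genes with all 1 μM samples below all 0.3 μM samples (16.0% of all genes), although its nearest values both round to 11.8 FPKM, and its log2 fold change of -0.19 had an adjusted p of 0.107. The values were -0.15 for MCM3 (adjusted p = 0.227), -0.18 for MCM4 (adjusted p = 0.105) and -0.06 for MCM6 (adjusted p = 0.709). MCM9 (-0.03), MCM10 (0.06) and MCMBP (0.11) did not pass either. The count depended on single samples. It was 6 without replicate 3 of 0.3 μM, 1 without replicate 2 of either dose, and 0 without replicate 1 of either dose or replicate 3 of 1 μM. With limma on log2 FPKM it was also 0.

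The proteins that load, activate and unload the helicase were taken as 6 lists, with 40 genes tested. The lists were chosen with earlier results of these data known, so their counts are a description. At 1 μM, 21 were called lower and 1 higher, with a median log2 fold change of -0.30, where 9.95% and 7.67% of all genes tested were called lower and higher, and at 0.3 μM 0 were called. Among the 9 licensing genes, which load the ring onto origins, 4 were lower and 0 higher (median -0.17). The largest fall was that of ORC6 (log2 fold change -0.50, SE 0.09, adjusted p = 0.00261), a subunit of the origin recognition complex, and the highest value was that of ORC5 (0.13, adjusted p = 0.487). CDT1, which brings the ring to the origin, was at -0.43 (adjusted p = 0.00169) and CDC6, the loading ATPase, at -0.40 (adjusted p = 0.00412).

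CDC45, the partner that turns the loaded ring into an active helicase, had 24.7, 24.5 and 25.4 FPKM in DMSO, 25.0, 23.8 and 21.2 at 0.3 μM and 16.2, 17.7 and 15.1 at 1 μM. All 1 μM samples were below the rest, and its log2 fold change of -0.62 (SE 0.07, adjusted p = 6.74e-05) was lower than the estimate of any ring subunit, a difference between genes that was not tested. Of the GINS subunits, GINS1 (-0.30, adjusted p = 0.00478) and GINS2 (-0.39, adjusted p = 0.0173) fell. The GINS2 call was lost without replicate 1 (adjusted p = 0.0635) or 3 (0.0893) at 1 μM. GINS4 (-0.32, SE 0.14, adjusted p = 0.127) and GINS3 (0.10, SE 0.15, adjusted p = 0.683) did not pass the test, and GINS3 had only 1.10 to 1.57 FPKM. The list of CDC45 and GINS therefore had 3 of 5 genes lower (median -0.32).

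Of 11 firing factors, 8 were lower and 0 higher (median -0.35). TICRR, which brings CDC45 to origins with TOPBP1, had the largest fall, from 5.86, 5.44 and 5.39 FPKM in DMSO to 3.70, 3.32 and 3.49 at 1 μM (log2 fold change -0.68, SE 0.08, adjusted p = 6e-05). CCNE2, a cyclin of the G1/S transition, had the highest value (0.06, adjusted p = 0.784). CDC7, the kinase that phosphorylates the MCM ring, was at -0.50 (adjusted p = 0.000922), while its activating subunits were at 0.04 (DBF4, adjusted p = 0.758) and -0.33 (DBF4B, adjusted p = 0.00436).

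All 5 partners of MCM10 in priming were lower (median -0.43). POLA2, a subunit of DNA polymerase alpha, had 3.45, 2.52 and 3.21 FPKM in DMSO and 1.88, 1.88 and 1.81 at 1 μM (log2 fold change -0.74, SE 0.12, adjusted p = 0.00115), and PRIM2 had the smallest fall (-0.21, adjusted p = 0.0394). The PRIM2 call held only without DMSO replicate 1 among the fits that left out 1 sample, with adjusted p from 0.0631 without DMSO replicate 2 to 0.136 without DMSO replicate 3 in the others, and DESeq2 gave 0.103. MCM10 itself, as given above, was at -0.13 and was not called. Of 4 tested partners of MCM8 and MCM9, 1 was lower (median -0.21), where 9.95% of all genes tested were lower. This was MRE11, a nuclease of double-strand break repair (-0.36, SE 0.09, adjusted p = 0.0173), which lost its call without replicate 1 (adjusted p = 0.068) or 2 (0.0883) at 1 μM, and the highest value was that of NBN (0.01, adjusted p = 0.963).

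Of 6 genes that act when the helicase is removed from DNA, 0 were lower and 1 was higher (median 0.08). Among all genes tested 9.95% were lower and 7.67% higher, so that these counts of 6 genes are near those shares. VCP, the ATPase that extracts the ubiquitylated helicase, had 54.0, 52.0 and 53.3 FPKM in DMSO, 58.2, 53.01 and 49.9 at 0.3 μM and 59.5, 62.3 and 61.6 at 1 μM (log2 fold change 0.19, SE 0.05, adjusted p = 0.0244). The call was lost without DMSO replicate 3 (adjusted p = 0.089) and without replicate 2 (0.0857) or 3 (0.0923) at 1 μM, so that 0 partner genes were called higher in those fits. TRAIP, a ubiquitin ligase that marks the helicase for removal, had the lowest value (-0.29, SE 0.11, adjusted p = 0.0708).

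**Figure D4:**
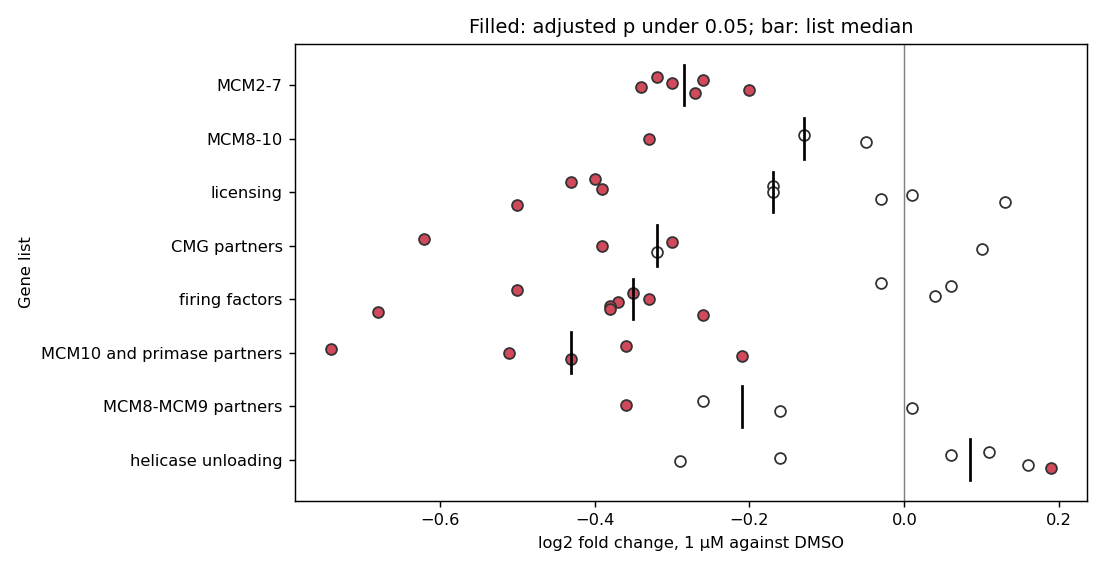
Log2 fold changes at 1 μM against DMSO (horizontal axis) of MCM2 to MCM7, MCM8 to MCM10 and the 6 partner lists, 1 point per gene, filled where the adjusted p was under 0.05, with a bar at the list median. The medians run from -0.43 for the priming partners to 0.08 for helicase unloading.

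The S phase and G2/M marker lists both had lower medians at 1 μM. In replicate 3 of 0.3 μM only the S phase median was clearly lower. Of 20 S phase genes without MCM members, 15 were lower and 0 higher at 1 μM (median -0.25, range -0.65 to 0.16), and of 20 G2/M genes 10 were lower and 2 higher (median -0.19, range -1.11 to 0.23), beside 9.95% lower and 7.67% higher among all genes. In single samples at 1 μM the S phase median was -0.21, -0.29 and -0.28 relative to DMSO, and it was -0.21 in replicate 3 of 0.3 μM. The G2/M median was -0.23, -0.13 and -0.16 at 1 μM and -0.01 in replicate 3 of 0.3 μM. Their part in the fall of the MCM genes was not tested.

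In the deposited annotation, several members start close to a gene on the opposite strand. TRMT6, a tRNA methyltransferase subunit whose start lies 94 bases from that of MCM8, had 7.05, 7.74 and 7.48 FPKM in DMSO, 7.62, 8.09 and 6.96 at 0.3 μM and 10.8, 9.77 and 9.94 at 1 μM. It was higher at 1 μM (log2 fold change 0.44, SE 0.08, adjusted p = 0.00187), where MCM8 was lower. SEC23IP starts 155 bases from the annotated MCMBP start (chr10:119892556) and was higher (0.24, SE 0.07, adjusted p = 0.0333). The MCMBP promoter windows searched above (chr10:119873582-119873781 and chr10:119872844-119873043) lie inside the MCMBP gene, not at that annotated start. The SEC23IP call held only without DMSO replicate 2 among the fits that left out 1 sample. In the others the adjusted p ran from 0.0507, without replicate 3 at 1 μM, to 0.138, without DMSO replicate 3. PRKDC, the catalytic subunit of DNA-PK, starts 2 bases from MCM4 and was at -0.09 (SE 0.05, adjusted p = 0.246). TPRA1, 44 bases from MCM2, was at 0.04 (adjusted p = 0.757), and AP4M1, 391 bases from MCM7, at 0.13 (adjusted p = 0.483). Of these 5 neighbours, TRMT6 and SEC23IP were called higher at 1 μM, where 7.67% of all genes tested were called higher. None of the 5 was called lower, where 9.95% of all genes tested were, so the count of lower calls is near that share. ASF1A, a histone chaperone, overlaps MCM9 by 14948 bases and was higher (0.28, adjusted p = 0.0423), again a call that held only without DMSO replicate 2 (adjusted p in the others 0.0502, without replicate 2 at 1 μM, to 0.147, without DMSO replicate 3). TPRA1 and AP4M1 overlap MCM2 and MCM7 by 45 and 392 bases. The use of strand in counting is not given in the sources used here, so that reads in the overlaps cannot be assigned with certainty and the MCM9 value is uncertain.

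**Figure D5:**
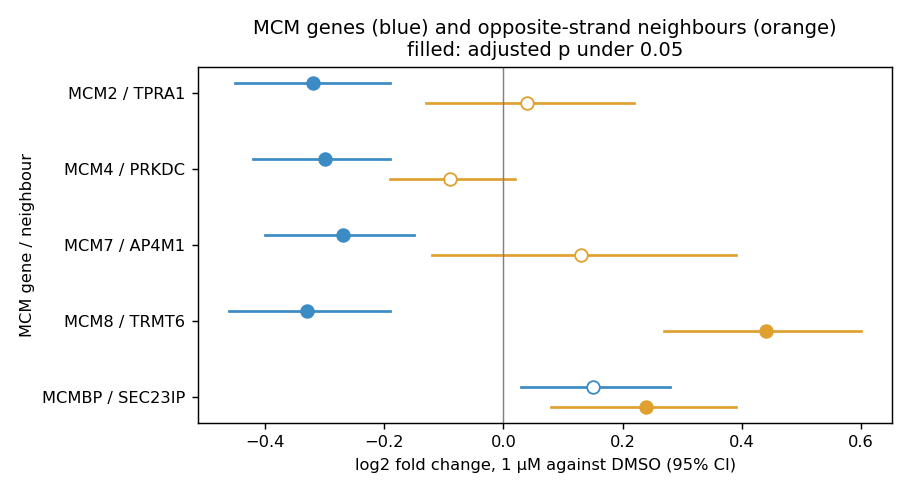
Log2 fold changes with 95% CI at 1 μM against DMSO for 5 MCM genes (blue) and the opposite-strand genes at their annotated starts (orange). Points are filled where the adjusted p was under 0.05. TRMT6 (0.44) and MCM8 (-0.33) lie on opposite sides of 0.

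Likeness to the ring was measured as the root mean square difference of log2 CPM, relative to DMSO, over the 9 samples. Among the members outside the ring, MCM8 was nearest to the mean of MCM2 to MCM7 (0.096), followed by MCM10 (0.15), MCM9 (0.23) and MCMBP (0.28). This measure also grows with counting noise. MCM9 had 104 to 155 counts per sample and MCM10 had 500 to 734, against 1290 or more in the ring genes. Their larger values therefore cannot be read as unlikeness alone. The ring genes themselves were at 0.036 (MCM5) to 0.076 (MCM6), and since the mean includes them these values are a description. The nearest of 12759 other protein-coding genes were TMEM136 (0.039), TUBA3C (0.043), AKT2 (0.044), C11orf49 (0.046) and DIDO1 (0.051). TUBA3C encodes an alpha-tubulin and belongs to a family of near-identical copies, so that its counts are uncertain, and AKT2 encodes a protein kinase of insulin signalling. The nearest to MCM10 were DDX5 (0.046), an RNA helicase, TMEM14A (0.051), RUFY1 (0.061), SKA3 (0.064), a kinetochore protein, and VMP1 (0.066).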

How the data were processed

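RNA-seq of 9 KHM-5M samples in 3 groups was used. Per the labels, the authors used HISAT2 2.0.5, featureCounts 1.5.0-p3 and DESeq2 1.20.0, while the methods name HTseq for counting. The build is GRCh38. The methods name 2 biological replicates and the labels 3, and all 3 were used. The deposited counts are whole reads per gene without normalization. The deposited FPKM values were made by the authors by dividing each count by gene length and by a library size of 0.992 to 1.02 times the total count. The authors' table also holds fold changes, p-values and group means of their own comparisons, which were not used.

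Counts were tested with edgeR 4.0.16 in R 4.3.3. Genes were kept by filterByExpr at a minimum count of 10, scaled by TMM, and fitted by glmQLFit and glmQLFTest on the 2 groups compared. The Benjamini-Hochberg adjustment covered every gene of the fit, and a gene was called at an adjusted p under 0.05. Standard errors and 95% intervals came from the quasi-likelihood F statistic. Per-sample log2 values used a prior count of 2. Alternatives were DESeq2 1.42.0, limma 3.58.1 on log2 FPKM with pseudocounts of 0.1 and 1, RLE, upper quartile and total scaling, a joint fit of the 9 samples, a replicate block, a minimum count of 1, omission of each sample in turn, the unadjusted p and a 1.5-fold cutoff. The fits were tested on simulated data. Tables and figures used Python 3.11.15, pandas 2.3.3, numpy 2.4.6, scipy 1.17.1 and matplotlib 3.10.9.

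All 10 members are named. Of each partner list the largest fall and the highest value at 1 μM are named, with all of CDC45 and GINS. CDT1, CDC6, CDC7, DBF4, DBF4B and PRIM2 were named after their values were seen. Neighbours start within 1000 bases on the opposite strand or overlap a member, with a mean count of at least 10. For likeness, the 5 nearest genes are named. Some list and marker genes are not reported here. The members and lists were chosen with earlier results of these data known.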

Additional observations from a re-analysis of the deposited data

How the results depend on the processing

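Of the 10 MCM genes, 6 to 8 were called at 1 μM under DESeq2, RLE, upper quartile and total scaling, a minimum count of 1, a single fit of all 9 samples, limma on FPKM and the unadjusted p (7 as reported), and 5 to 7 when 1 sample was left out. All these calls were lower, except that the unadjusted p gave 7 lower and 1 higher, MCMBP. With a 1.5-fold cutoff the count of members was 0, and that of the partner genes was 3 in place of 22. Partner counts ran from 15 to 22 when 1 sample was left out and from 17 to 27 under the other alternatives. At 0.3 μM every alternative run gave 0 members. For 1 μM against 0.3 μM the count was 3, with 0 for limma on log2 FPKM at both pseudocounts, 5 by the unadjusted p, 0 with the 1.5-fold cutoff and 0 to 6 when 1 sample was left out; the cause was not tested.

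Samples with the same replicate number did not deviate together in every pair (correlations -0.0217 to 0.0817 over 16124 genes). The main fits therefore did not take the numbers as pairing. Yet 7 of 9 samples correlated best with a sample of their own number, so the numbers may carry a shared batch, which was not tested. With the replicate number as a block, 6 members were called at 1 μM, 0 at 0.3 μM, 2 for 1 μM against 0.3 μM, and 20 partner genes. MCM6 at 1 μM (log2 fold change -0.20, adjusted p = 0.0652) and MCM2 between doses (-0.22, adjusted p = 0.0619) lost their calls under the block, as did PRIM2 (adjusted p = 0.0854), VCP (0.0757), SEC23IP (0.0571) and ASF1A (0.0813) at 1 μM. The partner genes called under the block were 20 lower and 0 higher.

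Signs changed only when 1 sample was left out, and only for values that were not called. At 0.3 μM the log2 fold change ran from -0.14 to 0.01 for MCM5, -0.23 to 0.0 for MCM6, -0.06 to 0.02 for MCM7 and -0.14 to 0.12 for MCM9. At 1 μM it ran from -0.17 to 0.06 for MCM9. Between doses it ran from -0.20 to 0.04 for MCM6, -0.17 to 0.11 for MCM9 and -0.03 to 0.13 for MCM10. The median of MCM2 to MCM7 between 1 μM and DMSO was -0.27 in FPKM and -0.28 in CPM on TMM-scaled totals. MCM9, with 104 to 155 counts per sample, is the member whose precision is limited by depth.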
